A study of Rattus norvegicus with 16 samples.

Results

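Immediate early genes were described in liver RNA of 16 male rats of the inbred F344 strain, each measured on 1 Affymetrix RG-230 PM array. The set was given as 10 symbols (Fos, Jun, Junb, Jund, Egr1, Ier2, Ier3, Klf6, Zfp36 and Dusp1). A probe set belonged to a gene when the platform annotation gave it exactly 1 of these symbols, and the gene's value was its probe set with the highest mean over the 16 arrays. Under that rule 9 of the 10 genes had a value, from 14 probe sets, out of 13438 genes with a single symbol on the array. Fos was not analysed here, because none of the annotated probe sets carried its symbol. All 9 passed the filter on low values, as did 11434 genes in all.

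The rats formed 4 groups of 4, aged 4 weeks per the labels and reared for 3 weeks. Hydrogen CDAA rats were fed the CDAA diet (choline-deficient, L-amino acid-defined), known to cause fatty liver, with drinking water enriched to 0.7 mM hydrogen and 2% hydrogen added to their air. Control CDAA rats ate the same diet with plain air and water from which the hydrogen had been stirred out. Hydrogen normal-diet rats received basal chow (CE-2) with the hydrogen water and gas, and control normal-diet rats received chow, plain air and the dehydrogenized water. Values are log2 signals as the authors normalised them, which spanned 2.42 to 13.73 over all probe sets. Array values show a relative level of each probe set across rats and are not set against each other between genes. The labels do not say how long each liver waited before it was immersed in RNAlater, or in which order the rats were killed. The p-values set a difference between groups against the spread within groups, pooled over these 16 samples.

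Immediate early genes are switched on within minutes of a stimulus without new protein synthesis, and their mRNAs decay quickly. Kinases of the MAP kinase pathways activate SRF and CREB, factors that already sit at these promoters, and the products are themselves mostly transcription factors or brakes on the same signals. In liver they are known to respond to partial hepatectomy, oxidative and lipid stress and inflammatory cytokines, and also to anaesthesia, handling and excision of the tissue. JUN, JUNB and JUND pair with each other or with FOS proteins to form the factor AP-1. EGR1 and KLF6 are zinc finger transcription factors, IER2 is a nuclear protein, and IER3 is a regulator of cell survival. ZFP36 (tristetraprolin) speeds the decay of cytokine mRNAs, and DUSP1 is a phosphatase that switches MAP kinases off.

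Promoter sequence was available for 7 of the 9 genes from RefSeq (rat build GRCr8). It is shown for 4 genes whose values differed in kind. Klf6 had the largest diet difference in control rats. Egr1 was higher on the CDAA diet and had its lowest values under hydrogen on chow. The diet did not measurably change Ier2, and Dusp1 was lower on the CDAA diet under hydrogen. The 250 bases before the gene start are written 5′ to 3′ on the gene's strand. Capitals mark the CREB site TGACGTCA, its shorter core TGACGT on either strand, and the CArG box that SRF binds. They lie at chr17:69458479-69458728 (minus strand, Klf6), chr18:26736828-26737077 (plus strand, Egr1), chr19:40399123-40399372 (plus strand, Ier2) and chr10:17184603-17184852 (plus strand, Dusp1).
Klf6: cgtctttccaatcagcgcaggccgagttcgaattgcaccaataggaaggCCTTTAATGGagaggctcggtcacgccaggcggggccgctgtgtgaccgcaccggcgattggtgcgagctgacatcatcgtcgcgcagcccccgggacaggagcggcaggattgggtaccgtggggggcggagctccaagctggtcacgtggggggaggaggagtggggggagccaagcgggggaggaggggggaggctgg
Egr1: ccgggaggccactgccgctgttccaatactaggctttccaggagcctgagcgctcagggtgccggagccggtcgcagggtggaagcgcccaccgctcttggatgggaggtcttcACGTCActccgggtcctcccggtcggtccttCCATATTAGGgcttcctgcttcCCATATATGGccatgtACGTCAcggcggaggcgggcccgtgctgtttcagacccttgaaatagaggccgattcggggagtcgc
Ier2: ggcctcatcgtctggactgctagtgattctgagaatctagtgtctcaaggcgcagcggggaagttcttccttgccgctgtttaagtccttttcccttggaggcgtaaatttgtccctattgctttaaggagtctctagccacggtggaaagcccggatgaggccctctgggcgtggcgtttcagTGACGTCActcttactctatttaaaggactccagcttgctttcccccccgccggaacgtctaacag
Dusp1: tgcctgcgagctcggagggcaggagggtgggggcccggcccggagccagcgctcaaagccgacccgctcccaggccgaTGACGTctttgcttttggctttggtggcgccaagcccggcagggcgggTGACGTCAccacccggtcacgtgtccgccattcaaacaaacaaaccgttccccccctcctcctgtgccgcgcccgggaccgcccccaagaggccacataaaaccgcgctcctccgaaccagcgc

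The full CREB site was present in this window in 3 of 7 members (Jund, Ier2 and Dusp1), against 1.59% of 33469 promoters of the same length. The core, which every full site contains on both strands, was in 4 of 7 (also Egr1), against 6.95%. A CArG box was in 3 of 7 (Egr1, Klf6 and Zfp36), against 1.5%, and Egr1 had 2 of them, 96 to 105 and 74 to 83 bases before its start. The AP-1 site TGACTCA was in 0 of 7, against 4.05%, and the TATA box letters TATAAA were in 1 (Junb), against 12.9%. Both strands were searched. These are matches of letters and say nothing on binding in these livers, and nothing is drawn from them about the factors. On the log2 scale the diet difference in control rats was 0.94 (Jund), 0.31 (Ier2) and −0.42 (Dusp1) for genes with the full CREB site. It was 1.95 (Klf6), 0.98 (Egr1) and 0.49 (Zfp36) for genes with a CArG box. Whether a site goes with the diet difference was not tested.

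A fact of the whole series touches the members. Control normal-diet replicate 4 lay nearer to the CDAA arrays than its fellows did on principal component 1 of the tested probe sets, at −13.44, against −32.28, −35.09 and −32.45 for the other arrays of its group. Some of the results that use this group are given with and without it. The 8 hepatocyte markers that were measured had a summed signal of 15.59 to 15.63 log2 in hydrogen CDAA livers, 15.63 to 15.66 in control CDAA livers, 15.62 to 15.67 in hydrogen normal-diet livers and 15.63 to 15.67 in control normal-diet livers. None of them was below the detection line of 3.68 log2 in any group. The sum is carried mostly by the strongest signals, such as Alb at 13.72 log2 in control CDAA livers. By limma (adjusted p under 0.05) the diet in control rats called 1 marker higher, Apoa1 (1.25-fold), and 2 lower, Arg1 (1.33-fold) and Hnf4a (1.21-fold). Among all genes 27.3% were higher and 13.3% lower. Neither lower call held without control CDAA replicate 3. That of Hnf4a was also lost without control CDAA replicate 2 or control normal-diet replicates 2 or 4. Under hydrogen 1 marker was higher and 2 were lower, beside 32.1% and 17.3% of all genes.

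**Figure D1:**
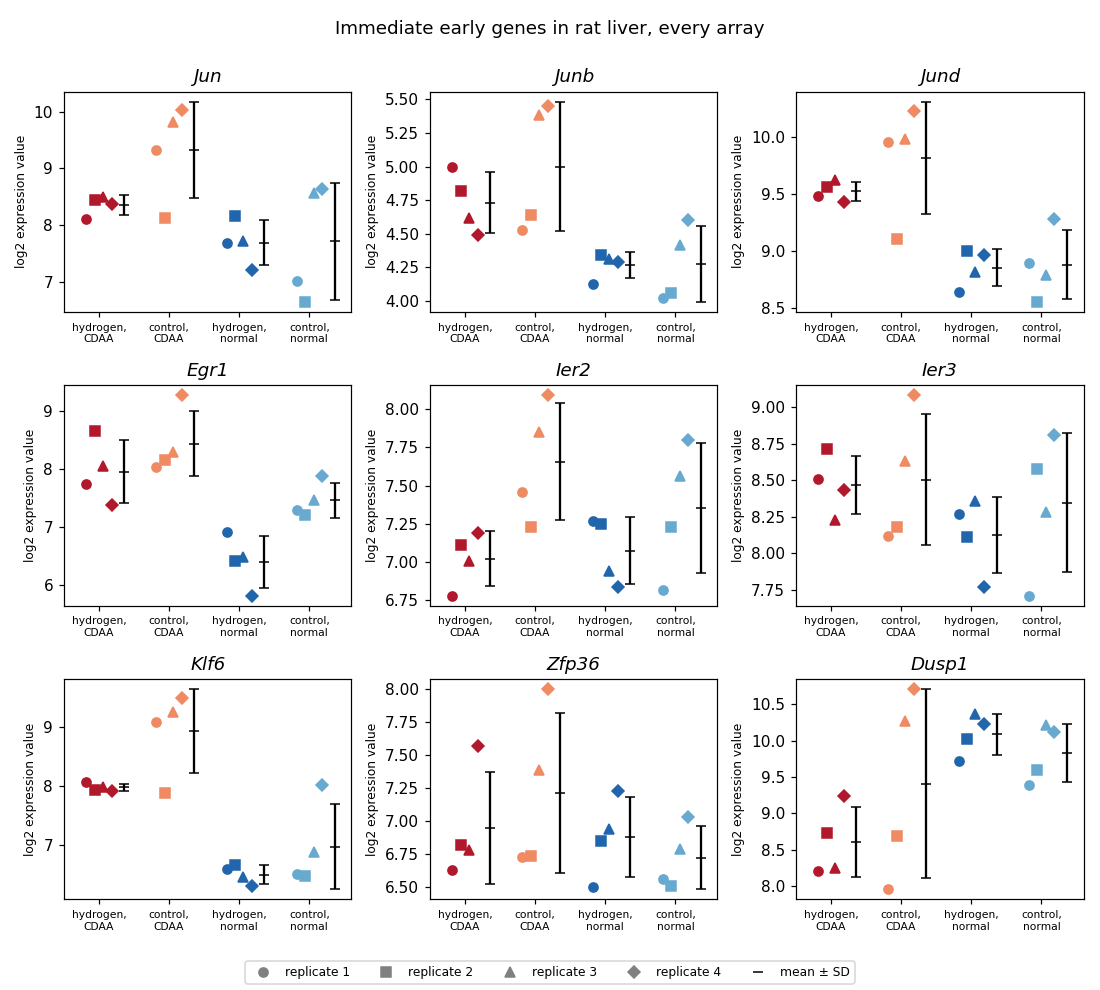
Log2 expression value of each of the 9 genes on all 16 arrays. Groups run from left to right, the marker shape gives the replicate number, and the bar beside each group is its mean ± SD (n = 4). In the control CDAA group replicate 4 is the highest array for all 9 genes, and the hydrogen CDAA arrays of Klf6 lie between 7.92 and 8.07.

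On the CDAA diet in control rats, 5 of the 9 genes were higher than on chow and none was lower by limma (adjusted p under 0.05). These were Klf6 (3.87-fold), Jun (3.05-fold), Egr1 (1.97-fold), Jund (1.92-fold) and Junb (1.65-fold), that is, the 3 JUN genes and both zinc finger factors. Among all 11434 genes tested, 27.3% were called higher and 13.3% lower in this comparison. The median log2 difference was 0.73 over the 9 members and 0.04 over all genes. The 4 genes without a call were Ier2, Ier3 and the brakes Zfp36 and Dusp1. Without control normal-diet replicate 4 the 5 called genes kept their calls. Their log2 differences were then 2.30 (Klf6), 1.92 (Jun), 1.12 (Egr1), 1.07 (Jund) and 0.83 (Junb).

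Jun was 9.33, 8.12, 9.82 and 10.03 log2 on the 4 control CDAA arrays, against 7.02, 6.64, 8.56 and 8.64 on the 4 control normal-diet arrays. The groups overlapped, since CDAA replicate 2 was lower than both normal-diet replicates 3 and 4. The difference was 1.61 ± 0.433 (standard error, n = 4 per group, limma adjusted p = 0.00848). Its other probe sets gave 1.76 (adjusted p = 0.00104) and 1.27 (adjusted p = 0.00821), so all 3 Jun probe sets were called higher.

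Junb was 4.53, 4.64, 5.38 and 5.45 log2 in control CDAA livers, against 4.02, 4.06, 4.42 and 4.60 in control normal-diet livers. Its signal was close to the detection line of 3.68 and only normal-diet replicate 4 reached above the lowest CDAA array (difference 0.73 ± 0.19, adjusted p = 0.00732). Jund was 9.95, 9.10, 9.98 and 10.23 log2 in control CDAA livers, against 8.89, 8.55, 8.79 and 9.28 in control normal-diet livers. Here too the overlap came from 2 arrays, CDAA replicate 2 and normal-diet replicate 4 (difference 0.94 ± 0.19, adjusted p = 0.00123). Both further Jund probe sets stayed below the detection line on every array, with highest values of 3.66 and 3.37, and were not tested.

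Egr1 was 8.04, 8.15, 8.30 and 9.27 log2 in control CDAA livers, against 7.29, 7.21, 7.47 and 7.89 in control normal-diet livers. It was the only 1 of the 9 whose control groups did not overlap, as 24.7% of all genes did in the higher direction (difference 0.98 ± 0.293, adjusted p = 0.0163). The call rested in part on 1 liver: without control CDAA replicate 4 the difference was 0.70 (adjusted p = 0.0577), and over all alternatives the adjusted p ran between 0.00495 and 0.0577. Klf6 was 9.08, 7.89, 9.25 and 9.49 log2 in control CDAA livers, against 6.51, 6.49, 6.88 and 8.02 in control normal-diet livers. CDAA replicate 2 was the low array and normal-diet replicate 4 the high one, and the difference was 1.95 ± 0.316 (adjusted p = 0.000218) with all arrays and 2.30 (adjusted p = 1.15e-05) without normal-diet replicate 4.

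Of the genes without a call, Ier2 was 7.46, 7.23, 7.85 and 8.09 log2 in control CDAA livers, against 6.82, 7.23, 7.56 and 7.80 in control normal-diet livers (difference 0.31, 95% confidence interval −0.12 to 0.73). Ier3 was 8.12, 8.18, 8.63 and 9.08 log2 in control CDAA livers, against 7.71, 8.58, 8.28 and 8.81 in control normal-diet livers (0.16, interval −0.32 to 0.64), and its sign turned when control CDAA replicate 4 or control normal-diet replicate 1 was left out. These groups interleaved. Zfp36 was 6.73, 6.74, 7.39 and 8.00 log2 in control CDAA livers, against 6.56, 6.51, 6.79 and 7.03 in control normal-diet livers (0.49, interval −0.05 to 1.04). Dusp1 had the widest range, with 7.95, 8.69, 10.27 and 10.71 log2 in control CDAA livers, against 9.39, 9.59, 10.22 and 10.12 in control normal-diet livers. In control CDAA livers 2 arrays were below and 2 above every normal-diet array, and the difference of −0.42 had an interval of −1.38 to 0.53. Its sign turned without control CDAA replicate 1.

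Under hydrogen the diet difference covered 3 higher genes and 1 lower gene. Egr1 (2.93-fold), Klf6 (2.77-fold) and Jund (1.59-fold) were called higher in hydrogen CDAA livers than in hydrogen normal-diet livers, and Dusp1 was called lower (2.79-fold). Among all genes 32.1% were called higher and 17.3% lower. Egr1, Klf6, Jund and Junb had no overlap between the diets in the higher direction, as 28.8% of all genes did, and Dusp1 had none in the lower direction, as 15% did. The median log2 difference was 0.47 over the 9 members and 0.05 over all genes.

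Egr1 was 7.75, 8.65, 8.05 and 7.38 log2 in hydrogen CDAA livers, against 6.91, 6.42, 6.48 and 5.82 in hydrogen normal-diet livers (difference 1.55 ± 0.293, adjusted p = 0.000535). Klf6 was 8.07, 7.94, 7.98 and 7.92 log2 in hydrogen CDAA livers, against 6.60, 6.66, 6.46 and 6.31 in hydrogen normal-diet livers (1.47 ± 0.316, adjusted p = 0.00149). Jund was 9.48, 9.56, 9.62 and 9.43 log2 in hydrogen CDAA livers, against 8.64, 9.00, 8.81 and 8.96 in hydrogen normal-diet livers (0.67 ± 0.19, adjusted p = 0.00953). In each of these 3 genes every hydrogen CDAA array lay above every hydrogen normal-diet array.

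The other JUN genes did not pass. Junb was 5.00, 4.82, 4.62 and 4.49 log2 in hydrogen CDAA livers, against 4.13, 4.34, 4.31 and 4.29 in hydrogen normal-diet livers, and its difference of 0.47 had an adjusted p = 0.0573, which ran between 0.00648 and 0.151 over the alternatives. Jun was 8.10, 8.45, 8.50 and 8.37 log2 in hydrogen CDAA livers, against 7.69, 8.16, 7.71 and 7.20 in hydrogen normal-diet livers, with an overlap of 1 array on each side (0.67, interval −0.25 to 1.58, adjusted p = 0.223). In a fit of these 2 groups alone, whose own spread was small, Jun had an adjusted p = 0.0123, with a range of 0.0123 to 0.415 over the alternatives.

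Dusp1 was 8.21, 8.73, 8.24 and 9.24 log2 in hydrogen CDAA livers, against 9.72, 10.02, 10.37 and 10.23 in hydrogen normal-diet livers. Every CDAA array was lower (difference −1.48 ± 0.453, adjusted p = 0.0146). The further Dusp1 probe set gave −1.21 (adjusted p = 0.00617), with 3.87, 3.84, 4.13 and 4.11 log2 in hydrogen CDAA livers, against 4.66, 5.26, 5.70 and 5.15 in hydrogen normal-diet livers. Ier2 (−0.05, interval −0.48 to 0.37), Ier3 (0.34, interval −0.14 to 0.82) and Zfp36 (0.07, interval −0.48 to 0.62) had no call. Ier2 spanned 6.78 to 7.19 log2 in hydrogen CDAA livers and 6.84 to 7.27 in hydrogen normal-diet livers. Ier3 was 8.51, 8.71, 8.23 and 8.43 log2 in hydrogen CDAA livers, against 8.27, 8.11, 8.36 and 7.77 in hydrogen normal-diet livers. Zfp36 was 6.63, 6.82, 6.78 and 7.57 log2 in hydrogen CDAA livers, against 6.50, 6.85, 6.94 and 7.23 in hydrogen normal-diet livers. The groups overlapped in all 3 genes.

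**Figure D2:**
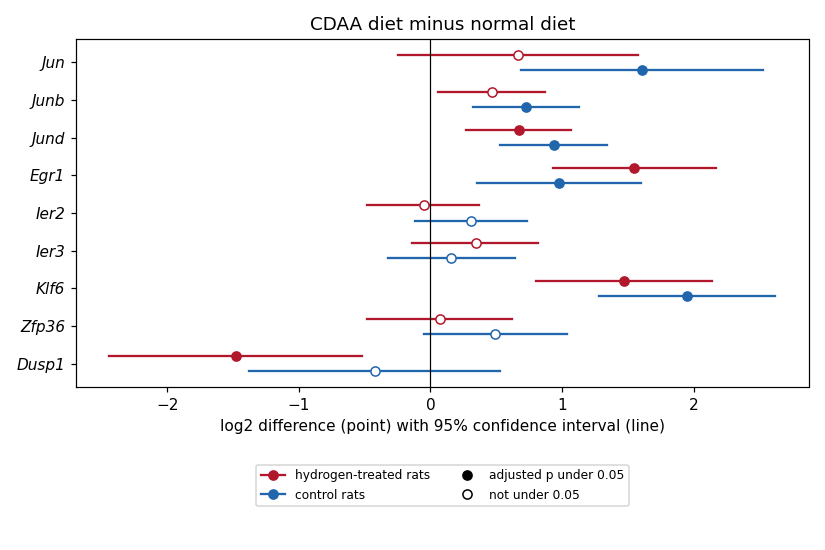
Log2 difference of the CDAA diet minus the normal diet for each gene, in hydrogen-treated rats (upper point of each pair) and control rats (lower point), with 95% confidence intervals from limma. Filled points have an adjusted p under 0.05. Klf6, Jund and Egr1 are filled in both, Jun and Junb in control rats and Dusp1, at −1.48, in hydrogen-treated rats.

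Whether the diet difference itself changed with hydrogen was tested as an interaction. None of the 9 genes was called by limma, and none had an unadjusted p under 0.05. The share of all genes called was 0%. Dusp1 had the largest value (−1.06 ± 0.64, adjusted p = 0.649), followed by Jun (−0.95 ± 0.612, adjusted p = 0.672), and Egr1 had 0.58 ± 0.414 (adjusted p = 0.707). The intervals were wide, −2.41 to 0.30 for Dusp1 and −2.24 to 0.35 for Jun. The calls of Jun and Junb in control rats and of Dusp1 under hydrogen are therefore not shown to differ between the treatments.

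Hydrogen on the CDAA diet gave a lower mean for all 9 genes, but limma called 0, with 3 at an unadjusted p under 0.05. Among all genes 0.376% were called in either direction. The median log2 difference was −0.48 over the 9 members and 0.008 over all genes. The 9 signs are not separate results, since control CDAA replicates 3 and 4 were above their group mean for 8 and 9 members. The sign of Ier3 turned in 3 of 26 alternatives. Ier2 was 6.78, 7.11, 7.01 and 7.19 log2 in hydrogen CDAA livers, against 7.46, 7.23, 7.85 and 8.09 in control CDAA livers. It was the only member without overlap, as 1.51% of all genes were in the lower direction (difference −0.64 ± 0.199, interval −1.06 to −0.21, adjusted p = 0.227).

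Klf6 in hydrogen CDAA livers (7.92 to 8.07) was below 3 of the 4 control CDAA arrays and above replicate 2 at 7.89 (−0.95 ± 0.316, adjusted p = 0.247). Without that replicate the difference was −1.30 and was called (adjusted p = 0.0223), with a range of 0.0223 to 0.55 over the alternatives. Jun was 8.10 to 8.50 log2 in hydrogen CDAA livers and 8.12 to 10.03 in control CDAA livers, again with control replicate 2 as the low array, and the difference was −0.97 (interval −1.89 to −0.05, adjusted p = 0.401). Its other probe sets gave −0.98 and −1.02 (adjusted p = 0.277 and 0.247). The remaining differences were −0.80 for Dusp1, −0.48 for Egr1, −0.29 for Jund, −0.27 for Junb, −0.27 for Zfp36 and −0.03 for Ier3, with adjusted p between 0.524 and 0.977. The control CDAA arrays also enter the diet comparison in control rats, and the hydrogen CDAA arrays the diet comparison under hydrogen, so these results are not independent.

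On the normal diet hydrogen left 8 of the 9 genes with differences between −0.47 and 0.26. Egr1 stood apart, with 6.91, 6.42, 6.48 and 5.82 log2 in hydrogen normal-diet livers, against 7.29, 7.21, 7.47 and 7.89 in control normal-diet livers. All 4 hydrogen arrays were lower, as was the case for 3.26% of all genes (difference −1.06 ± 0.293, 2.08-fold). The unadjusted p was 0.00234 and the adjusted p = 0.366, so limma called 0 of the 9, with 1 at an unadjusted p under 0.05. Of all genes 0.00875% were called. Without control normal-diet replicate 4 the Egr1 difference was −0.92 (adjusted p = 0.567), and its adjusted p ran between 0.116 and 0.793 over the alternatives.

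For the 3 JUN genes the differences were −0.03 for Jun (interval −0.94 to 0.89), −0.01 for Junb (−0.41 to 0.40) and −0.03 for Jund (−0.43 to 0.38), and the sign of each turned without control normal-diet replicate 4. The intervals leave room for changes of over 1.5-fold for Jun in either direction. Klf6 was −0.47 (adjusted p = 0.803), and −0.12 without that replicate, whose value of 8.02 was the only control normal-diet one above 6.88. Ier2 was −0.28, Ier3 −0.22, Zfp36 0.16 and Dusp1 0.26, with adjusted p between 0.814 and 0.948.

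**Figure D3:**
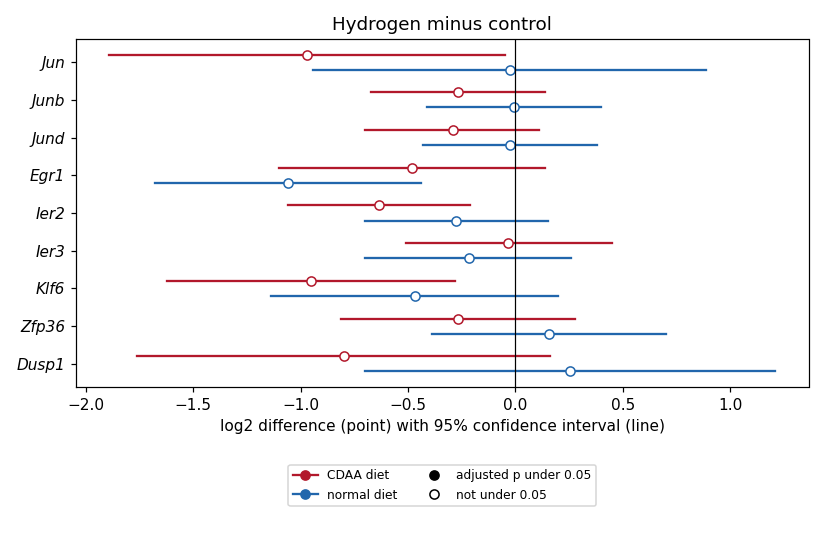
Log2 difference of hydrogen minus control for each gene on the CDAA diet (upper point) and on the normal diet (lower point), with 95% confidence intervals from limma. All points are open (adjusted p of 0.227 or more); on the CDAA diet all 9 lie below 0, and on the normal diet Egr1 is lowest at −1.06.

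The genes varied widely between rats of the same group, and in the control groups did so together. The pooled standard deviation within groups was 0.74 log2 for Dusp1, 0.71 for Jun, 0.51 for Klf6, 0.47 for Egr1, 0.42 for Zfp36, 0.37 for Ier3, 0.32 for Ier2 and 0.30 for Junb and Jund. The median over all genes tested was 0.117, and each member's value was larger than that of 95.8% to 99.7% of genes. In control CDAA livers, replicate 4 lay above the group mean for all 9 genes and replicate 3 for 8 of 9, whereas replicate 2 was above it for 0 and replicate 1 for 3. The mean deviations over the 9 genes were −0.34, −0.62, 0.29 and 0.67 for replicates 1 to 4.

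In control normal-diet livers, replicate 4 was above its group mean for all 9 genes, replicate 3 for 6, and replicates 1 and 2 for 1 each. The mean deviations were −0.37, −0.30, 0.16 and 0.52. In both control groups replicates 1 and 2 were thus below and replicates 3 and 4 above the mean, and the labels do not say what a replicate number stands for. Hydrogen-treated livers had smaller shifts, with mean deviations between −0.12 and 0.13 on the CDAA diet and between −0.14 and 0.10 on the normal diet. Counted over all 11434 genes, the share above the group mean was 39.4% to 57.4% on every array, 45.5% on control CDAA replicate 4 and 52.8% on control normal-diet replicate 4.

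**Figure D4:**
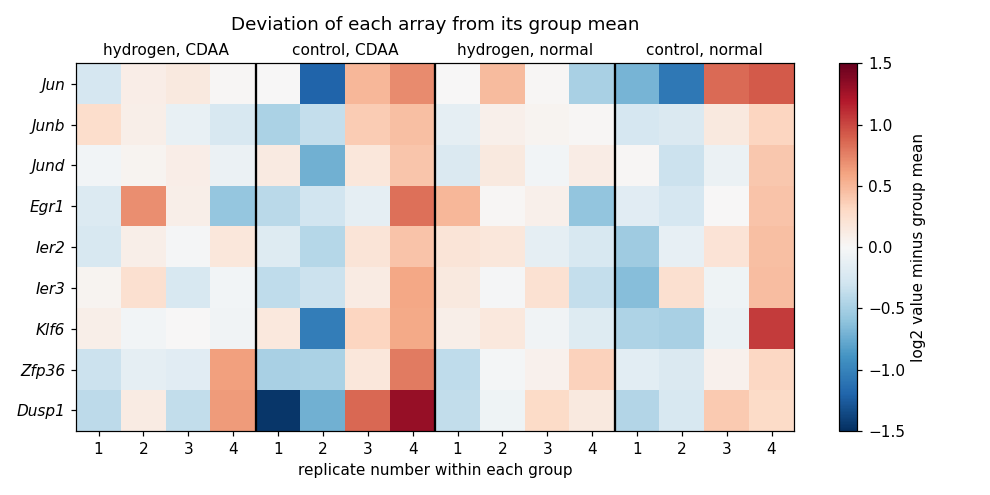
Log2 value of each gene minus its group mean (colour) on each of the 16 arrays, with groups divided by vertical lines and replicate numbers below. Red columns mark arrays on which most members were high, such as replicate 4 of both control groups (9 of 9 genes each), and the blue column of control CDAA replicate 2 has 0 of 9 genes above the mean.

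The spread of most members was smaller under hydrogen. On the CDAA diet all 9 genes had a lower standard deviation among the 4 hydrogen arrays than among the 4 control arrays, as did 41.2% of all genes. For Klf6 it was 0.0665 log2 in hydrogen CDAA livers and 0.712 in control CDAA livers, for Jund 0.0842 and 0.493, for Jun 0.178 and 0.855, and for Dusp1 0.486 and 1.3. Egr1 differed least, with 0.537 and 0.564. On the normal diet 7 of 9 genes had a lower standard deviation under hydrogen, as did 58.5% of all genes, and Egr1 and Zfp36 had a higher one. The control group there holds replicate 4, which lay apart, as for Klf6 at 8.02 log2 against 6.51, 6.49 and 6.88. The spread without that array was not computed. Since the members moved together in the control groups, these counts rest on few livers, and no test of the spread was made.

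**Figure D5:**
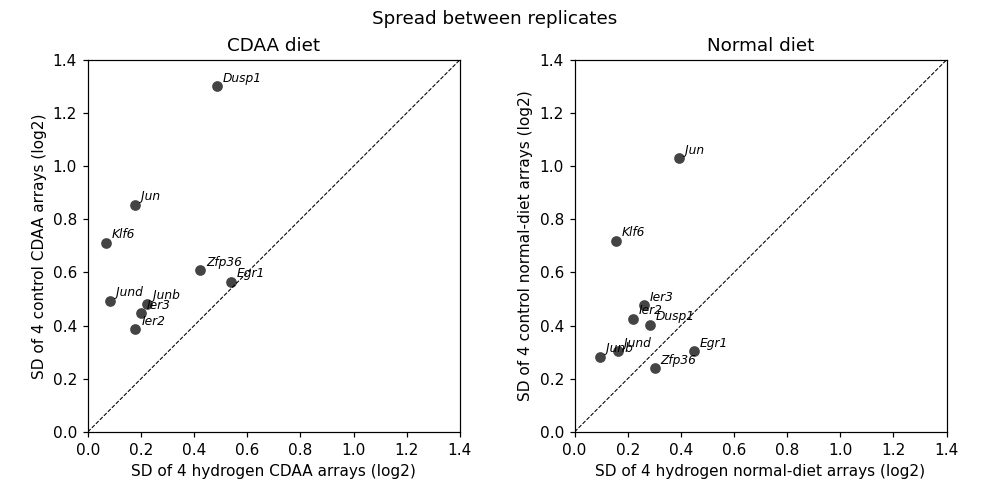
Standard deviation of each gene over the 4 arrays of the hydrogen group (horizontal) and of the control group (vertical) on each diet, in log2 units. Points above the dashed line of equality have the smaller spread under hydrogen: all 9 on the CDAA diet and 7 of 9 on the normal diet.

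Other immediate early genes were high on part of the same arrays. Of 29 further genes of this class that were tested, 13, 7, 16 and 24 were above their group mean on control CDAA replicates 1 to 4, and 7, 6, 14 and 26 on control normal-diet replicates 1 to 4. Replicate 4 was high in both groups as it was for the members, but on replicate 3, where 8 and 6 of the 9 members were above the mean, the median deviation of the 29 was 0.013 and 0. Under hydrogen the counts were 10, 21, 11 and 15 on the CDAA diet and 9, 13, 20 and 16 on chow. In the diet comparison in control rats 12 of the 29 were called higher and 0 lower, beside 27.3% and 13.3% of all genes, with a median log2 difference of 0.24. Under hydrogen 13 were higher and 1 lower, beside 32.1% and 17.3% of all genes, with a median of 0.17. Egr2, a relative of Egr1, was 5.24, 4.77, 5.31 and 5.93 log2 in control CDAA livers, against 4.16, 4.06, 4.06 and 4.32 in control normal-diet livers (2.24-fold, adjusted p = 0.000235). Myc, a growth regulator, was 8.00, 7.48, 8.50 and 8.90 log2 in control CDAA livers, against 3.65, 3.90, 3.98 and 7.27 in control normal-diet livers, so that normal-diet replicate 4 was its high array as well. Its fold was 11.5 with that array and 20.8 without it. Rhob, a small GTPase of endosomes, was 2.64-fold higher. For hydrogen limma called 0 of the 29 on either diet, with 5 at an unadjusted p under 0.05 on the CDAA diet and 4 on the normal diet.

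Among 12 possible partners of the JUN proteins in AP-1, the diet called 5 higher and 0 lower in control rats (median 0.11). Among all genes 27.3% were higher and 13.3% lower there. Under hydrogen 4 were higher and 1 lower, near the 32.1% called higher and 17.3% called lower among all genes. The median was 0.049 under hydrogen, against 0.052 over all genes. Of these 12, Atf3, Fosl1, Fosl2 and Maff are also among the 29 above, and 2 of the 4 were called. Atf3, which can repress as a dimer with JUN, was 8.52, 6.30, 8.87 and 9.64 log2 in control CDAA livers, against 4.22, 3.87, 4.57 and 7.85 in control normal-diet livers (9.22-fold, adjusted p = 0.00303). The fold was 17.3 without control normal-diet replicate 4 and 14.7 without control CDAA replicate 2. Its high and low arrays were those of Jun and Klf6. Of 20 regulators in the MAP kinase, SRF and CREB pathways, 5 were higher and 1 lower (median 0.08), a share close to the 27.3% called higher among all genes. The kinase gene Rps6ka3 was 1.81-fold and the SRF partner gene Elk3 1.61-fold higher, while Egfr, the epidermal growth factor receptor, was 4.01-fold lower (log2 −2.00 ± 0.266, adjusted p = 4.51e-05).

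The relatives of the brakes were mixed, and their counts are to be read beside the 27.3% called higher and 13.3% called lower among all genes. Of 6 other dual-specificity phosphatases tested, Dusp3 (1.44-fold), Dusp2 (1.34-fold) and Dusp5 (1.31-fold) were higher and Dusp9 was lower (1.12-fold) on the CDAA diet in control rats. The call of Dusp5 was lost without control CDAA replicate 4 (1.18-fold, adjusted p = 0.101) or control normal-diet replicates 1 or 2, and that of Dusp9 without any of control CDAA replicates 1, 2 and 4 or control normal-diet replicates 1, 3 and 4. Zfp36l2, which acts on mRNA like Zfp36, was 2.06-fold higher. Among 8 genes made of ZFP36 relatives and mRNAs that ZFP36 is known to destabilise, 4 were higher and 1, Vegfa, was lower (1.28-fold). The chemokine genes Cxcl1 and Ccl2 were 4.04-fold and 3.33-fold higher, while Tnf, Il1b and Zfp36l1 had no call. Of 12 other Krüppel-like factors, 3 were higher and 1 lower, near the share over all genes, with Klf11 at 1.86-fold and Klf3 at 1.51-fold. Klf2, Klf4 and Klf10 are also among the 29 further immediate early genes.

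Lists of other acute responses are to be read against the same 27.3% called higher and 13.3% called lower. Of 13 glucocorticoid-responsive genes, the diet in control rats called 2 higher (Fkbp5, 1.97-fold, and Ddit4, 5.09-fold) and 1 lower (the receptor gene Nr3c1, 1.53-fold). They were above the group mean in 9 of 13 cases on control CDAA replicate 4 and in 9 of 13 on control normal-diet replicate 4. Of 8 cytosolic heat shock genes 3 were higher and 1 lower. Above the group mean were 3 of 8 on control CDAA replicate 4, but 8 of 8 on control normal-diet replicate 4. Hydrogen arrays reached the same counts, with 9 of 13 glucocorticoid-responsive genes on hydrogen normal-diet replicate 3 and 8 of 8 heat shock genes on hydrogen normal-diet replicate 2. Of 13 hypoxia-responsive genes 4 were higher and 1 lower. On control CDAA replicate 4 and control normal-diet replicate 4, 7 and 8 of 13 were above the mean, and on hydrogen CDAA replicate 2 it was 10. The lower gene was Vegfa, which is also the lower gene of the ZFP36 list. Its call was lost without control CDAA replicate 1 (limma adjusted p = 0.0516) or control normal-diet replicate 3 (adjusted p = 0.0514).

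By the root mean square difference of centred log2 profiles over the 16 arrays, the gene most like Dusp1 was Sgk1, a serum- and glucocorticoid-induced kinase gene, at 0.480 (Dusp1's own root mean square was 0.850). Sgk1 was 7.83, 7.83, 8.11 and 8.25 log2 in hydrogen CDAA livers, against 8.58, 9.62, 9.53 and 9.62 in hydrogen normal-diet livers. It was 2.52-fold lower (limma adjusted p = 0.00337), and in control rats 1.21-fold lower on the CDAA diet without a call (adjusted p = 0.534). Since Sgk1 was picked for its likeness to Dusp1 on these same arrays, its difference is no separate evidence. Nearest to Egr1 were Raph1 at 0.402 and Egr2 at 0.414 (own value 0.858), and nearest to Klf6 was Plekha1 at 0.271 (own value 1.03), followed by the cytokine receptor gene Tnfrsf12a at 0.336. For Jun these were Fbxo30 at 0.416 and the growth arrest gene Gadd45a at 0.459 (own value 0.902), and for Jund Casp12 at 0.148 (own value 0.491). Junb was nearest to Tfe3, Ier2 to Irf2bpl, Ier3 to Tent4a and Zfp36 to Blvrb-ps1, at 0.188 to 0.278. None of the 9 members had another member among its 3 nearest genes.

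Markers of other cells moved with the diet in both directions. Their counts in control rats are to be read beside the 27.3% called higher and 13.3% called lower among all genes. Of 7 macrophage and Kupffer cell markers the diet in control rats called 5 higher and 1 lower. The lower one was Clec4f (1.53-fold, limma adjusted p = 0.00892), and the largest rise was that of Gpnmb (5.96-fold). The summed signal of the 7 was 11.43 to 12.29 log2 in hydrogen CDAA, 11.35 to 11.73 in control CDAA, 10.48 to 10.78 in hydrogen normal-diet and 10.26 to 11.07 in control normal-diet livers. Of 7 stellate cell markers 4 were higher, with sums of 10.25 to 10.50 log2 in hydrogen CDAA, 10.16 to 10.30 in control CDAA, 9.27 to 9.49 in hydrogen normal-diet and 9.26 to 9.75 in control normal-diet livers. Each of these markers was above the detection line on at least 1 array of every group. Endothelial Vwf (2.17-fold) and the bile duct marker Epcam (1.76-fold) were higher too, with calls for 2 of 4 markers in each list. The second endothelial call, Stab2 (1.31-fold, limma adjusted p = 0.0482), was lost without any 1 control CDAA array and without several others (adjusted p up to 0.14). The second bile duct call, Spp1 (1.51-fold), was lost without control CDAA replicates 1 or 3 or control normal-diet replicate 1. The diet in control rats called lower the blood cell markers Slc4a1 (1.67-fold) and Alas2 (1.5-fold). Of 6 lymphocyte and NK cell markers 1 was called higher and 2 lower. The lower ones were Gzma (1.62-fold) and Prf1 (1.29-fold, not called without control CDAA replicate 1 or control normal-diet replicates 1 or 3). The higher one was Cd3e (1.13-fold, limma adjusted p = 0.0494), a call lost without control CDAA replicate 3 (adjusted p = 0.134) and several other arrays. Cd8a, Ms4a1 and Nkg7 had no call. S100a9 was lower (1.45-fold), while the other 3 neutrophil markers, S100a8, Cxcr2 and Csf3r, were below the detection line on all 16 arrays. In bulk liver more cells of a type and more RNA per cell cannot be told apart, and the part of these cells in the values of the members was not tested. The difference between the 3′ and 5′ actin control sets, a gauge of RNA integrity, was 2.82 to 3.40 log2 in hydrogen CDAA, 3.22 to 3.56 in control CDAA, 2.65 to 3.15 in hydrogen normal-diet and 2.87 to 3.26 in control normal-diet livers. The same gauge for GAPDH was 0.30 to 0.46 in hydrogen CDAA, 0.26 to 0.39 in control CDAA, 0.16 to 0.23 in hydrogen normal-diet and 0.20 to 0.45 in control normal-diet livers, so the diets did not overlap under hydrogen. The part of RNA integrity in the results was not tested.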

How the data were processed

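Liver RNA of 16 rats was hybridised to RG-230 PM array strips after labelling with a kit that primes at the poly(A) end, per the labels' protocols. The authors deposited log2 expression values made with RMA and Affymetrix Expression Console, per the submitters' processing notes, whose versions are not given there. RMA equalises the distributions of the arrays, so a shift of all transcripts would not show. Strip and scan date were not used here. After 97 array controls were left out, tests covered the 22634 of 31139 probe sets with 4 or more arrays over 3.68 log2, the 30th percentile of the values, which also served as the detection line. Gene names came from the platform annotation, and all 18989 single-symbol probe sets matched to RefSeq by Entrez identifier had the same symbol there. The number of arrays limits the precision.

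The 16 arrays entered one limma 3.58.1 fit (R 4.3.3) that had a mean for each group and used eBayes. It pools the spread over the 4 groups, although most members varied more in the control groups. For Jun the SD was 0.855 in control CDAA and 1.03 in control normal-diet livers, against 0.178 and 0.392 under hydrogen. Its errors can thus be too small between the control groups and too large between the hydrogen groups. Benjamini-Hochberg adjustment ran over all 22634 probe sets, separately for each comparison. An adjusted p under 0.05 is a call. Unless marked SD, errors are standard errors from limma, intervals are 95%, and a fold is the unlogged difference. The steps were tested on simulated data. Replicate numbers are shared by the groups in the labels, but the deviations of same-numbered arrays correlated at over 0.1 in only 9 of 24 pairs (range −0.154 to 0.388 over genes), so the numbers were not taken to pair the samples and no block was used. The 9 members, all of which are named, and the other gene lists were chosen with earlier results of these data known. Of each list up to 3 called genes per direction with the smallest p for the diet in control rats could be named, and for each member the 3 genes of nearest profile. Alternatives were other filters, scalings, variance models and probe sets, array weights, a replicate block, fits of the compared groups alone and leaving out each array. Plots were made in matplotlib 3.10.9 (Python 3.11.15).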

Additional observations from a re-analysis of the deposited data

How the results depend on the processing

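Of the 9 member calls in the diet comparisons, 8 held under all 26 alternatives, and Egr1 in control rats lost its call without control CDAA replicate 4. Counts of called members stayed between 4 and 6 in both diet comparisons and at 0 for hydrogen on the normal diet and the interaction. For hydrogen on the CDAA diet they were 0 to 1 over the left-out arrays, the 1 being Klf6 without control CDAA replicate 2. Correlations of same-numbered arrays were mixed (hydrogen and control CDAA replicates 2 to 4 had 0.315, 0.388 and 0.222, replicate 1 had −0.103). With the replicate block, the diet called 6 members in control rats (Zfp36 was added, adjusted p = 0.00901, range over alternatives 0.00901 to 0.47) and 4 under hydrogen, and hydrogen called 1 probe set on the normal diet and 82 on the CDAA diet, and the interaction 0. The cause was not tested.

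Over all probe sets the counts for hydrogen were unsteady. On the normal diet 2 were called, against 17 in the fit of the 2 groups alone, 5 with trend and robust variances, 46 with array weights and 0 to 11 (without hydrogen normal-diet replicate 1) without single arrays. On the CDAA diet 71 were called, against 2 in the fit of those groups alone and 21 (without control CDAA replicate 4) to 345 (without control CDAA replicate 2). For the interaction 1 was called, against 3 with array weights and 0 to 21 without single arrays (21 without control CDAA replicate 2). The background split also depends on scaling: the diet called 4760 probe sets higher and 3267 lower in control rats and 5778 and 4371 under hydrogen, but 3686 and 5274, and 4220 and 8167, when arrays were centred on the median of tested probe sets, an alternative chosen after seeing the data. The called members were 5 higher, and 3 higher and 1 lower, there too.

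Signs turned only for differences without a call. Without single arrays the log2 difference ran from −0.054 to 0.312 for Ier3 and from −0.86 to 0.06 for Dusp1 (diet, control rats), from −0.131 to 0.028 for Ier2 and from −0.14 to 0.19 for Zfp36 (diet, hydrogen), from −0.38 to 0.28 for Jun, from −0.093 to 0.101 for Junb and from −0.13 to 0.11 for Jund (hydrogen, normal diet), and from −0.16 to 0.16 for Ier3 (hydrogen, CDAA diet). Quantile normalization applied again gave −0.093 for Zfp36 and 0.012 for Jun, array weights gave 0.182 for Jun, 0.045 for Junb and 0.006 for Jund, and centring on tested probe sets gave −0.030 for Zfp36 and 0.010 for Junb in these comparisons. Junb lies near the detection line, which limits its signal over background.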
